A study of Rattus norvegicus with 10 samples.

Results

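The collagen genes and the periostin gene Postn were followed in L6 dorsal root ganglia of rats, the sensory ganglia that flank the lowest lumbar segment. Members were every row of the count table named Col, a number, a and a number, plus Postn. This gave 45 genes of 30560, made up of 11 fibrillar collagen genes, 6 genes of type IV collagen, 27 other collagen genes and Postn. Postn was added to the collagens with its value in these libraries already known, so that value is a description of a chosen gene. The 10 libraries came from Sprague Dawley rats 7 to 8 weeks old, with 5 samples in each of 2 groups and 14 days as the timepoint of all of them. Both groups had a lumbar intrathecal catheter implanted, received meloxicam SR for pain relief, and were dosed 5 days after surgery through the catheter with 30 to 45 µL. The PBS group received buffer at a labelled dose of 0 mg, and the other group received 0.75 mg of SCN9A_2544, an siRNA against Scn9a, the gene of the sodium channel Nav1.7. The series design asks how specific this siRNA is, and no group given another siRNA was analysed here. The labels do not say whether the 14 days began at surgery or at dosing, nor that each sample was 1 animal, so a p-value here measures only the spread between these samples, which may be technical.

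Collagens are secreted proteins whose chains wind into triple helices. Fibrillar collagens assemble into the cables that give connective tissue its strength, type IV collagens form the mesh of basement membranes, and the other types decorate fibrils, anchor membranes or span the cell surface. In peripheral nerve and ganglion, fibroblasts of the epineurium and endoneurium lay down fibrils, while Schwann cells, satellite glia, perineurial cells and blood vessels are each backed by a basement membrane. Periostin is a matricellular protein, one that sits in the matrix and modifies how cells and collagen interact, and it is known to be made by fibroblasts and Schwann cells of injured tissue.

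Library totals ran from 11832363 to 15419987 counts after rounding, and 15186 genes had enough counts for a test. Levels are given as CPM, counts scaled to the size of each library after TMM normalization. This does not correct for gene length, so they are compared between libraries and not between genes. Scn9a, the target, stood at 132 to 257 CPM in PBS libraries and at 44.6 to 103 CPM in treated ones, without overlap. The means of the sensory neuron markers, 7.60 to 8.82 log2 CPM, and of the pan-neuronal markers, 7.52 to 8.81, were high in all 10 libraries. PBS replicates 3 and 5 and SCN9A_2544 replicate 3 had the lowest pan-neuronal means, 7.76, 7.98 and 7.52 log2 CPM. Values without these 3 libraries, an alternative chosen after seeing the data, are given for the members and lists they moved most. In a whole ganglion, fewer cells of a type and less RNA per cell cannot be told apart.

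A pair of sequences is shown for the members on which the results turn. RefSeq promoter windows on build GRCr8, which is not the build of the counts, were matched by symbol for 36 of the 45 members. The first sequence is the stretch between the starts of Col4a2 and Col4a1, whose levels moved together across libraries. The genes lie head to head on opposite strands with 76 bases between their starts, at chr16:84885521-84885596, shown on the strand of Col4a1. The second is the 250 bases before the start of Postn, the 1 member whose groups did not overlap, at chr2:140677811-140678060 on the plus strand. Capitals mark a match, on either strand, to one of the promoter motifs searched. These were the GC box, spelled GGGCGG. The CCAAT box was searched by the letters of its name. The TATA box was searched as TATAAA.
Col4a2 to Col4a1: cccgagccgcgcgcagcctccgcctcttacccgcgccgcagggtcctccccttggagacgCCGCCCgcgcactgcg
Postn: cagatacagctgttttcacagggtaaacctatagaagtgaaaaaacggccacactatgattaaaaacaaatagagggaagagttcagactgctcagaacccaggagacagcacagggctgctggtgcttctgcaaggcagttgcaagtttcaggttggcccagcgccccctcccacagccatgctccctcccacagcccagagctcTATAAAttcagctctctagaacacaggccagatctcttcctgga
The stretch between the collagen genes was 78.9% G and C and held 1 GC box, no CCAAT box and no TATA box. The Postn stretch held 1 TATA box, beginning 44 bases before the start, and neither of the others. Over all 33469 windows of 300 bases in the RefSeq table, which reach 250 bases before and 50 after a start, 14.2% held TATAAA, 33.1% GGGCGG and 37.5% CCAAT. Among the 36 matched members 5 held TATAAA (13.9%), namely Postn, Col1a2, Col10a1, Col13a1 and Col17a1. GGGCGG was present in 19 members (52.8%) and CCAAT in 11 (30.6%). Both counts include Col4a1 and Col4a2, whose windows of 300 bases reach beyond the 76 bases shown. The Col4a1 window held 2 CCAAT boxes and 2 GC boxes, and the Col4a2 window held 1 CCAAT box and 2 GC boxes. The other type IV pairs were also head to head, with 412 bases between the starts of Col4a3 and Col4a4 and 1414 between those of Col4a5 and Col4a6. A match of letters is a description and not a site of binding.

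CPM above 1 in at least 5 libraries was reached by 42 of the 45 members. The exceptions were Col4a6, above 1 in 1 library, the type VI chain gene Col6a4, in 3, and Col17a1, a transmembrane collagen of epithelial attachment, in 0. The filter on low counts left 43 members for the test, all but Col4a6 and Col17a1, with 11 fibrillar, 5 type IV and 26 other collagens and Postn. Col17a1 had 5 to 12 counts per library and Col4a6 had 2 to 16, with overlapping groups for both.

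At an adjusted p of 0.05, edgeR's quasi-likelihood test with Benjamini-Hochberg adjustment over all 15186 genes called 0 of the 43 members, as it called 0 genes in all (0.0%). The target Scn9a, at a log2 fold change of -1.03, was thus not called either. Unadjusted p-values under 0.05 belonged to 2 members on the higher side, Postn and Col7a1, and to 1 on the lower side, Col9a1, where the shares over all genes were 2.5% higher and 1.73% lower. DESeq2's Wald test called 1 member, Postn (adjusted p = 0.0147), among 0.0724% of all genes called higher. It gave unadjusted p-values under 0.05 to 2 members higher and 2 lower, against 403 higher and 412 lower of all 15186 genes. The limma voom fit with library weights called 0 members, with unadjusted p-values under 0.05 for 4 higher and 6 lower, where the shares over all genes in that fit were 12.1% and 8.79%. By edgeR the log2 fold change of SCN9A_2544 over PBS lay above 0 for 22 members and below 0 for 21, with a median of 0.01. Over all genes tested the median was 0.02, with 53.4% above 0. The 95% interval spanned 0 for 40 of the 43 members. It excluded a 2-fold difference in either direction for 13 of them.

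Postn (ENSRNOG00000012660) was higher in siRNA-treated ganglia by DESeq2 and did not pass by edgeR. Its level was 5.42, 2.33, 4.29, 3.84 and 2.47 CPM in PBS replicates 1 to 5, and 9.48, 8.50, 15.7, 12.7 and 5.52 CPM in SCN9A_2544 replicates 1 to 5. Every treated library lay above every PBS library, and Postn was the 1 member of 43 of which this held, while 0.454% of all genes tested were without overlap on the higher side. The margin was narrow at its edge, since PBS replicate 1 held 79 counts of Postn and SCN9A_2544 replicate 5 held 82. The group means were 3.67 ± 1.30 and 10.4 ± 3.91 CPM (SD, n = 5 each). The edgeR log2 fold change was 1.50 (SE 0.32, 95% interval 0.80 to 2.20), with an adjusted p = 0.812 by the quasi-likelihood test and the rank 10 by p among all genes. A two-sided exact permutation test of its log2 CPM gave p = 0.00794, the smallest that 5 libraries against 5 allow. Groups without overlap always give this value, and Postn was chosen with its level known, so this p is no separate evidence. Over 21 alternatives the log2 fold change ran from 1.20, with the 3 libraries low in neuronal markers left out, to 1.68, without PBS replicate 1. SCN9A_2544 replicate 3 held the highest level, and without it the value was 1.27. The deposited counts of Postn were whole in every library. The satellite glia marker mean also separated the groups without overlap, and its part in the level of Postn was not tested.

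Col7a1 (ENSRNOG00000020579) encodes the anchoring fibril collagen, which ties a basement membrane to the fibrils under it, and it had the highest log2 fold change of the members. It stood at 3.50, 2.73, 8.22, 4.10 and 2.80 CPM in PBS replicates 1 to 5, and at 17.0, 4.90, 86.0, 10.6 and 8.49 CPM in the treated replicates 1 to 5. Of the treated libraries 4 lay above the highest PBS library, SCN9A_2544 replicate 2 lay among the PBS values, and replicate 3 lay far above all others. The log2 fold change was 2.57 (SE 0.74, 95% interval 0.96 to 4.18), with an adjusted p = 0.963 by edgeR's quasi-likelihood test, an adjusted p = 0.0899 by DESeq2 and an exact permutation p = 0.0159. Without SCN9A_2544 replicate 3 it was 1.23, and leaving out the 3 libraries low in neuronal markers gave 1.55.

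Col9a1 (ENSRNOG00000012920) encodes a chain of type IX collagen, which coats the fibrils of cartilage, and it had the lowest log2 fold change. Its level was 2.40, 135, 1.34, 15.8 and 23.8 CPM in PBS replicates 1 to 5, and 2.92, 3.40, 2.18, 3.40 and 7.75 CPM in SCN9A_2544 replicates 1 to 5. PBS replicates 2, 4 and 5 lay above every treated library, and PBS replicates 1 and 3 lay among the treated values or below them. The log2 fold change was -3.18 (SE 1.03, 95% interval -5.43 to -0.93), with an adjusted p = 0.963 by edgeR's quasi-likelihood test and an exact permutation p = 0.230. Without PBS replicate 2, which alone held 2027 counts, it was -1.46 with an unadjusted p of 0.0713. The list of cartilage and bone markers held 13 genes, of which 8 were tested, 5 above 0 and 3 below. Above 0 were Bglap at 1.10, Runx2 at 0.97, Ibsp at 0.85, Comp at 0.42 and Alpl at 0.12 on the log2 scale, and below 0 were Sox9 at -1.16, Cnmd at -0.61 and Hapln1 at -0.18. The other 5 had few counts. Among these, Acan, the main proteoglycan of cartilage, had 4 to 16 counts in every library, Matn1 0 to 2 and Matn3 0 to 6. In PBS replicate 2, the highest library of Col9a1, Cnmd stood at 194 CPM against 76.7 to 280.5 CPM over all libraries. Sox9 stood there at 15.37 against 4.01 to 38.1 CPM and Comp at 9.51 against 9.07 to 21.8 CPM. Ibsp was at 6.92 against 1.67 to 20.2 CPM and Alpl at 33.3 against 16.5 to 35.4 CPM. Bglap was at 2.93 against 0.512 to 6.46, Runx2 at 3.19 against 2.92 to 23.5 and Hapln1 at 10.3 against 1.91 to 14.0 CPM. Averaged over the 8 tested markers, PBS replicate 2 stood at 3.68 log2 CPM, above the other PBS libraries at 3.11 to 3.48. Treated libraries ran from 3.32 to 3.77. The part of cartilage cells in the level of Col9a1 was not tested.

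**Figure D1:**
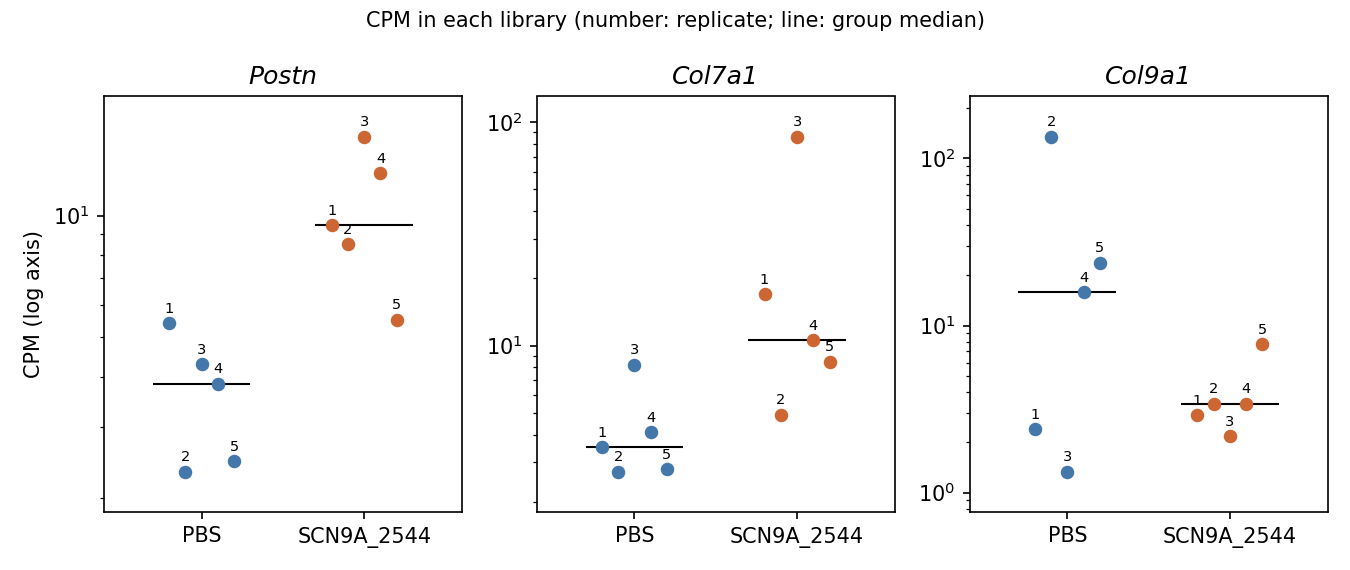
Level in CPM on a log axis of Postn, Col7a1 and Col9a1 in each of the 5 PBS and 5 SCN9A_2544 libraries, with the replicate number beside each point and a line at the group median. The groups do not overlap for Postn, where the PBS libraries reach 5.42 CPM and the treated ones begin at 5.52 CPM, and they overlap for Col7a1 and Col9a1, where single libraries stand at 86.0 and 135 CPM.

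Among the 11 fibrillar collagen genes 3 lay above 0 and 8 below, with a median log2 fold change of -0.34. None passed the edgeR test, and no unadjusted p by edgeR was under 0.05. Without SCN9A_2544 replicate 3 the median was -0.56, without PBS replicate 3 it was 0.03, and leaving out the 3 libraries low in neuronal markers gave -0.01. Together the fibrillar genes took 0.188%, 0.803%, 0.903%, 0.382% and 1.06% of the counts of PBS replicates 1 to 5. In treated replicates 1 to 5 they took 0.370%, 0.383%, 0.825%, 0.575% and 0.538%. The PBS libraries therefore held both the lowest and the highest shares, and every treated library lay between them.

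Type I collagen, the main fibril of nerve sheaths, is made of Col1a1 and Col1a2 chains. Col1a1 stood at 379.8, 2583, 2326, 1085 and 3532 CPM in PBS replicates 1 to 5 and at 1021, 1107, 2148, 1545 and 1442 CPM in the treated ones. PBS replicate 1 was the lowest of all libraries and PBS replicate 5 the highest, 9.30-fold apart. The log2 fold change was -0.45 (SE 0.47) for Col1a1 and -0.38 (SE 0.48) for Col1a2. Col3a1, the chain of type III collagen that is mixed into type I fibrils, stood at 326, 2039, 2638, 791 and 2427 CPM in the PBS group and at 665, 737, 1414, 1489 and 1384 CPM in siRNA-treated ganglia. Its log2 fold change was -0.53 (SE 0.49), and PBS replicate 1 was again the lowest library. For all 3 genes the treated values fell inside the PBS range.

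Type V collagen nucleates type I fibrils and sets their width. Its chain genes Col5a1, Col5a2 and Col5a3 had log2 fold changes of 0.08, -0.03 and -0.04. Col5a3 stood at 587 to 1281 CPM in the PBS group and 683 to 1337 CPM in siRNA-treated ganglia (SE 0.26). Type XI collagen is its relative of cartilage and other tissues. Col11a1 stood at 18.9 to 47.7 CPM in the PBS group and 15.8 to 29.2 CPM in siRNA-treated ganglia, with a log2 fold change of -0.51 (SE 0.26), and Col11a2 had one of -0.34 (SE 0.34). Col11a1 lay below 0 in all 21 alternatives, from -0.75 to -0.36, and passed in none. Col2a1, the fibrillar collagen of cartilage, was highest in SCN9A_2544 replicate 3 at 345 CPM, while the other treated libraries stood at 32.2 to 70.6 CPM and the PBS libraries at 30.8 to 204 CPM. Its log2 fold change of 0.20 (SE 0.67) changed sign in 6 of 21 alternatives.

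Col24a1 and Col27a1 encode the late-branching fibrillar types XXIV and XXVII. Col24a1 stood at 30.2, 92.1, 81.9, 48.3 and 202 CPM in the PBS group and at 46.5, 47.1, 46.1, 38.6 and 75.2 CPM in siRNA-treated ganglia, a log2 fold change of -0.84 (SE 0.42, unadjusted p = 0.0675). PBS replicate 5 stood apart, and without it the value was -0.34. With the 3 libraries low in neuronal markers left out it was -0.16. Col27a1 had a log2 fold change of 0.60 (SE 0.44), with the treated libraries at 35.2 to 50.9, 60.9 and 171 CPM. The highest of these was SCN9A_2544 replicate 3, and the other treated libraries lay within the PBS range of 32.4 to 87.0 CPM.

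**Figure D2:**
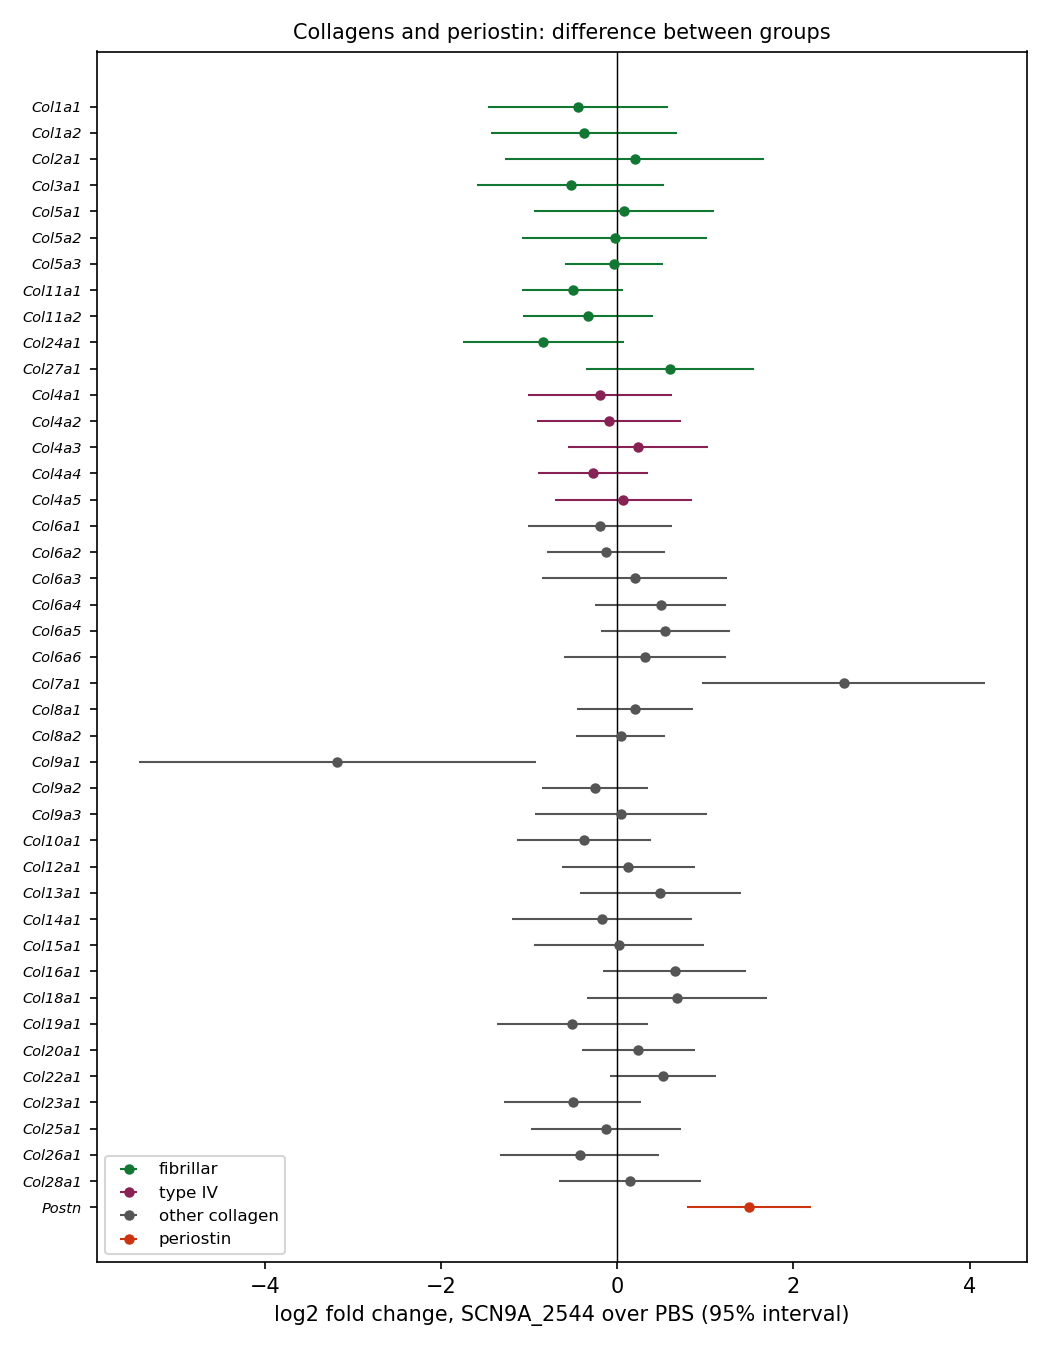
Log2 fold change of SCN9A_2544 over PBS from edgeR for the 43 tested members, on the horizontal axis, with bars for the 95% interval and colours for the 4 classes. The interval spans 0 for 40 members, and the 3 others are Postn at 1.50, Col7a1 at 2.57 and Col9a1 at -3.18.

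Type IV collagen genes passed no test between the groups. Of the 5 tested, 2 lay above 0 and 3 below, with a median log2 fold change of -0.09 and a range from -0.28 to 0.24. The median was -0.28 without SCN9A_2544 replicate 3, and it was 0.16, with 4 of 5 above 0, with the 3 libraries low in neuronal markers left out. Col4a1 and Col4a2 encode the chains found in nearly every basement membrane. Col4a1 stood at 139, 356, 673, 240.1 and 476 CPM in PBS replicates 1 to 5 and at 229, 270.1, 530.2, 327 and 286 CPM in treated replicates 1 to 5. Both groups spanned much of the same range, with PBS replicate 1 the lowest and PBS replicate 3 the highest library. Its log2 fold change was -0.20 (95% interval -1.02 to 0.62), and that of Col4a2 was -0.09 (-0.91 to 0.73). Col4a3, Col4a4 and Col4a5, chains of more specialised basement membranes such as those of the kidney, had values of 0.24, -0.28 and 0.07. Their levels were low, 1.12 to 3.84 CPM for Col4a3, 3.91 to 10.5 CPM for Col4a4 and 1.58 to 6.30 CPM for Col4a5 over all libraries.

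The paired chains of type I and of type IV collagen that are most widely made kept close ratios while their levels ranged widely. Of 6 pairs of chains that build 1 molecule 5 could be measured, since Col4a6 was not tested. The size of a ratio depends on gene length, so only its variation between libraries is read. The log2 ratio of Col1a1 to Col1a2 was 0.41 ± 0.10 in PBS and 0.41 ± 0.19 in SCN9A_2544 libraries (SD, n = 5 each, exact permutation p = 0.968). It ran from 0.22 to 0.65 over the 10 libraries, a range of 0.43, while log2 CPM of Col1a1 itself had a range of 3.22. For Col4a1 and Col4a2 the ratio was 0.03 ± 0.16 in PBS and -0.03 ± 0.14 in siRNA-treated ganglia (exact permutation p = 0.516), with a range of 0.45 against 2.28 for Col4a1. Both genes carried fractions of a count in the same 9 libraries and the sum of the pair was whole, within 0.01, in all 9. The single values of Col4a1 and Col4a2 are therefore uncertain, and the part of the counting in the closeness of their ratio was not tested.

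Ratios of the other pairs had ranges of 0.64 for Col6a1 to Col6a2, 1.12 for Col5a1 to Col5a2 and 1.78 for Col4a3 to Col4a4. In the same order, log2 CPM of the first chain had ranges of 2.53, 3.14 and 1.66. The type VI pair therefore also varied much less in ratio than in level. The ratio of Col6a1 to Col6a2 was -0.19 ± 0.31 in PBS and -0.19 ± 0.09 in siRNA-treated ganglia (exact permutation p = 1), and that of Col5a1 to Col5a2 was 0.21 ± 0.48 and 0.31 ± 0.27 (exact permutation p = 0.690). Col4a3 to Col4a4 gave -1.64 ± 0.55 in PBS and -1.16 ± 0.39 in siRNA-treated ganglia, a difference of 0.48 (exact permutation p = 0.159). Adjusted over the 5 pairs, this exact permutation p was 0.794 and the other 4 were 1.

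**Figure D3:**
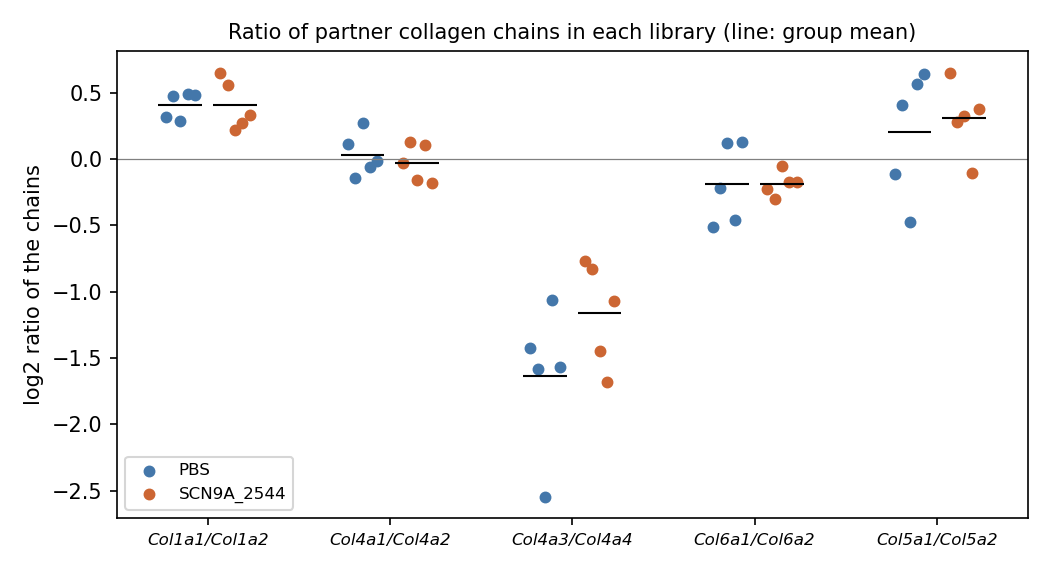
Log2 ratio of partner collagen chains in each library, for 5 pairs on the horizontal axis, with PBS and SCN9A_2544 libraries side by side and a line at each group mean. Col1a1 to Col1a2 stays between 0.22 and 0.65 in all 10 libraries, and Col4a3 to Col4a4 spreads from -2.55 to -0.77.

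The 26 other collagens that were tested divided into 16 above 0 and 10 below, with a median log2 fold change of 0.09 and, Col7a1 and Col9a1 apart, values between -0.51 and 0.67. Without SCN9A_2544 replicate 3 that median was -0.19. Type VI collagen forms beaded filaments around cells. Its chain genes Col6a1, Col6a2 and Col6a3 had log2 fold changes of -0.20, -0.13 and 0.20, and the alternative chains Col6a4, Col6a5 and Col6a6 had 0.50, 0.55 and 0.32. Col6a5 was highest in SCN9A_2544 replicate 4, at 103 CPM, where the other treated libraries stood at 24.3 to 62.4 CPM and the PBS libraries at 26.6 to 48.4 CPM. This order differed from that of Col6a1, whose highest library was PBS replicate 5 at 323 CPM and whose lowest was PBS replicate 1 at 55.8 CPM. The counts of Col6a6, like those of Col20a1, were not whole in any of the 10 libraries, so the levels of both are uncertain.

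No collagen that attaches to fibril surfaces passed the edgeR test after adjustment. Col12a1 and Col14a1, of tendon and fascia, had log2 fold changes of 0.13 and -0.18, and the type IX chain genes Col9a2 and Col9a3 had -0.25 and 0.05. Col16a1 had a value of 0.65 (SE 0.37). It stood at 117, 165, 298, 149 and 202 CPM in the PBS group and at 246, 156, 624.6, 188 and 248 CPM in siRNA-treated ganglia. In that gene 4 of 5 treated libraries lay above the PBS median, SCN9A_2544 replicate 3 was the highest, and without it the value was 0.13. Col19a1 stood at -0.51 (SE 0.39), Col20a1 had 0.24 (SE 0.29) and Col22a1, a collagen of tissue junctions, 0.51 (SE 0.28). All 5 treated libraries stood above the PBS median for Col22a1, at 5.78 to 14.4 CPM against a PBS range of 4.53 to 8.65 CPM.

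Col15a1 and Col18a1 encode the multiplexins, collagens of basement membrane zones that carry sugar chains. Col15a1 had a log2 fold change of 0.01, with a sign that turned under both other scalings, by upper quartile and by the size factors of DESeq2. Col18a1, whose end fragment is endostatin, stood at 44.7, 89.7, 141, 91.4 and 137 CPM in the PBS group and at 81.4, 97.3, 415, 104 and 106 CPM in siRNA-treated ganglia. The 415 CPM of SCN9A_2544 replicate 3 stood alone, and the other 4 treated libraries lay within the PBS range. With it the log2 fold change was 0.67 (SE 0.47), and without it -0.09.

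Network and membrane collagens made up the rest. The short-chain network genes Col8a1, Col8a2 and Col10a1 had log2 fold changes of 0.20, 0.04 and -0.38. The transmembrane collagens Col13a1, Col23a1 and Col25a1 had 0.49, -0.51 and -0.13. Col13a1, which works at the neuromuscular junction, stood at 0.984 to 5.72 CPM in the PBS group and 2.83 to 4.41 CPM in siRNA-treated ganglia, and Col23a1 at 16.4 to 95.9 CPM and 31.9 to 44.7 CPM. For both, the treated range lay inside the PBS range. Col26a1 had a value of -0.43 (SE 0.42). Col28a1, a collagen of the basement membrane around Schwann cells, had 0.14 (SE 0.37), with PBS replicate 3 at 218 CPM and SCN9A_2544 replicate 3 at 200.5 CPM and the other 8 libraries between 64.7 and 111 CPM.

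Levels varied widely between libraries of the same group. The highest library of a member exceeded its lowest by 5.29-fold in the median over the tested members. PBS replicate 1 was the lowest library for 28 of the 43, among them 10 of the 11 fibrillar genes, 4 type IV genes and 14 other collagens. SCN9A_2544 replicate 3 was the highest for 15, of which 4 were fibrillar, 1 was type IV, 9 were other collagens and the last was Postn. All collagens together took 0.297% to 1.39% of the counts in PBS libraries (mean 0.927% ± 0.473, SD, n = 5) and 0.565% to 1.29% in treated ones (0.809% ± 0.293, SD, n = 5).

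**Figure D4:**
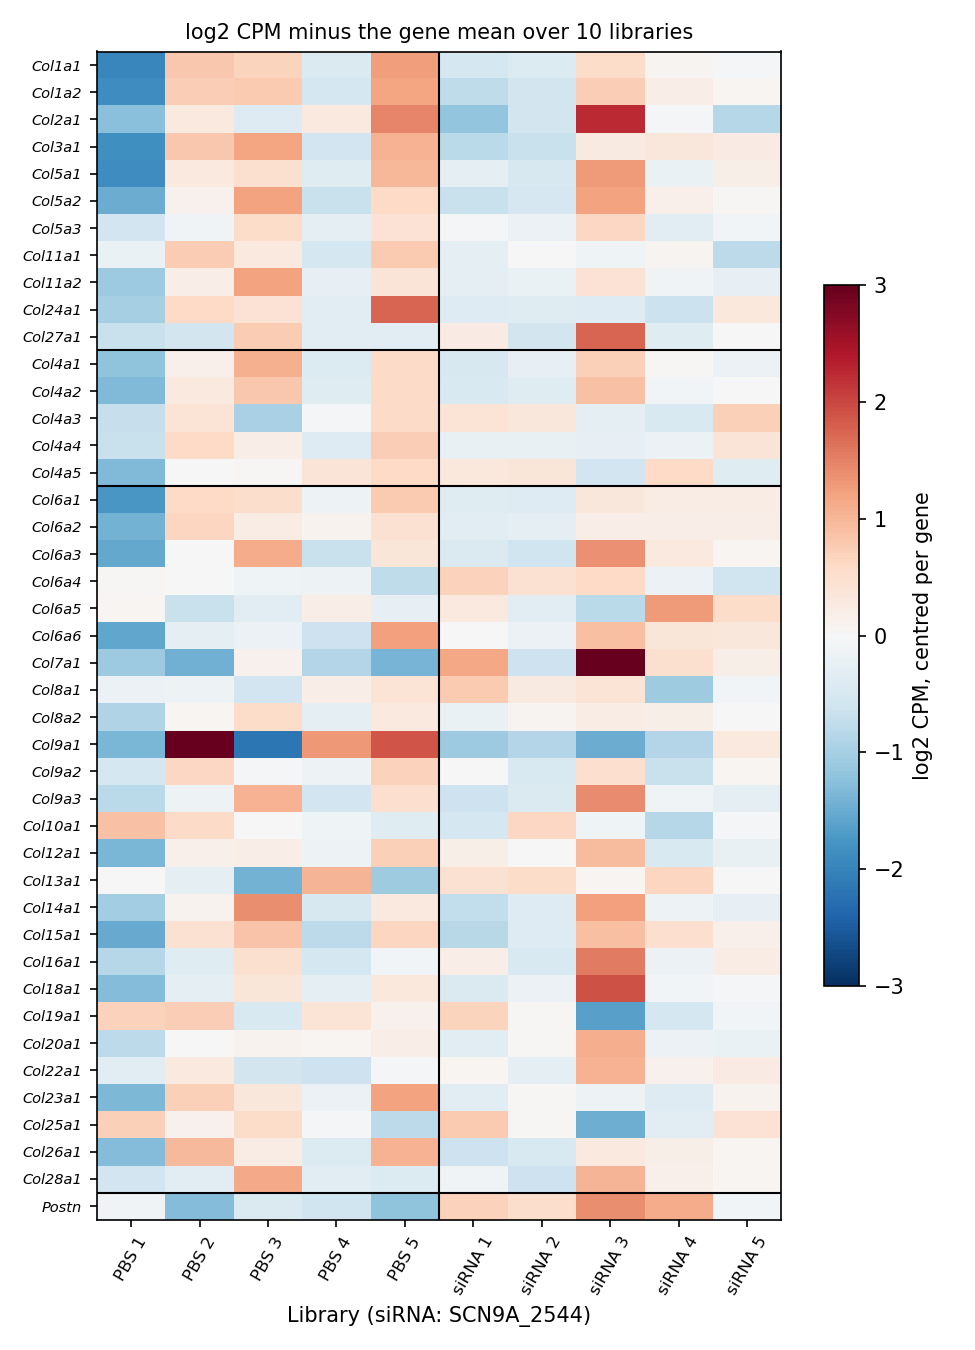
Heat map of log2(CPM + 0.1) minus the mean of the gene over 10 libraries, with 43 members in rows by class, libraries in columns and colours that stop at 3 in either direction. The column of PBS replicate 1 is low for 28 members and that of SCN9A_2544 replicate 3 is the highest for 15, while Postn is high across the treated columns.

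Levels of Col1a1, Col3a1 and Col4a1 followed the Schwann cell, mural and endothelial marker means of the libraries. Across the 10 libraries Col4a1 varied with the mean of 15 Schwann cell and myelin markers (Pearson r = 0.95, permutation p = 1e-05, the smallest the permutations can give, Spearman rho = 0.99, permutation p = 1e-05). Leaving out the 2 libraries most distant from the median of that mean gave r = 0.93. Against the pan-neuronal mean the relation of Col4a1 was inverse (r = -0.87, permutation p = 0.00017, rho = -0.93, permutation p = 0.00029), and r was -0.80 without 2 libraries. Col4a1 also followed the endothelial mean (r = 0.86, permutation p = 0.00196, rho = 0.88, permutation p = 0.00156, r = 0.73 without 2) and the mural mean (r = 0.85, permutation p = 0.00191, rho = 0.76, permutation p = 0.0146, r = 0.77 without 2). The fibroblast mean gave r = 0.32 (permutation p = 0.364, rho = 0.36, permutation p = 0.314, r = -0.04 without 2). These libraries share their depth and composition, so the relations are not separate from each other. Altogether 20 relations were computed.

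Col1a1 followed the same lists in another order. Its r was 0.92 with the mural mean (permutation p = 0.00046, rho = 0.76, permutation p = 0.015), 0.87 with the endothelial mean (permutation p = 0.0015, rho = 0.83, permutation p = 0.00478) and 0.86 with the Schwann mean (permutation p = 0.00045, rho = 0.89, permutation p = 0.00107). Leaving out 2 libraries, these were 0.68, 0.90 and 0.93. With the pan-neuronal mean r was -0.69 (permutation p = 0.0261, rho = -0.83, permutation p = 0.00462, r = -0.81 without 2) and with the fibroblast mean 0.50 (permutation p = 0.143, rho = 0.50, permutation p = 0.144, r = 0.21 without 2). Col3a1 had r = 0.86 with the Schwann mean (permutation p = 0.00133, rho = 0.87, permutation p = 0.00199, r = 0.93 without 2). For Col3a1 r was 0.82 with the mural mean (permutation p = 0.00351, rho = 0.65, permutation p = 0.0476) and 0.75 with the endothelial mean (permutation p = 0.0123, rho = 0.79, permutation p = 0.00906), and without 2 libraries 0.52 and 0.75. It was -0.67 with the pan-neuronal mean (permutation p = 0.0348, rho = -0.79, permutation p = 0.00896, r = -0.77 without 2) and 0.48 with the fibroblast mean (permutation p = 0.158, rho = 0.54, permutation p = 0.113, r = 0.13 without 2). Adjusted over the 20 relations, the permutation p-values for r of Col4a1 were 0.0002 with the Schwann mean, 0.0017 with the pan-neuronal mean, 0.0049 with the mural and with the endothelial mean and 0.485 with the fibroblast mean. For Col1a1 the adjusted values were 0.0023 with the Schwann and with the mural mean, 0.0049 with the endothelial, 0.0474 with the pan-neuronal and 0.22 with the fibroblast mean. For Col3a1 they were 0.0049 with the Schwann, 0.0078 with the mural, 0.0247 with the endothelial, 0.058 with the pan-neuronal and 0.226 with the fibroblast mean.

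Over all 10 libraries Postn had no clear relation to these lists, and most of the values depended on single libraries. Its r was -0.14 with the Schwann mean (permutation p = 0.699, rho = -0.02, permutation p = 0.973), -0.09 with the fibroblast mean (permutation p = 0.813, rho = -0.12, permutation p = 0.758) and -0.21 with the mural mean (permutation p = 0.585, rho = -0.19, permutation p = 0.608). With the pan-neuronal mean it was -0.02 (permutation p = 0.950, rho = -0.08, permutation p = 0.837) and with the endothelial mean -0.00 (permutation p = 0.994, rho = -0.19, permutation p = 0.604). With the 2 most distant libraries of each list left out, these 5 values were -0.58, -0.57, -0.11, 0.61 and -0.70 in the same order. The value for the mural mean moved little, and the other 4 depended on which libraries were included. The adjusted permutation p-values for r of Postn ran from 0.731 to 0.994. These r also hold the difference of Postn between the groups. With the group mean taken from each value, r was 0.01 with the Schwann mean, -0.31 with the fibroblast and -0.38 with the mural mean. It was -0.23 with the pan-neuronal and -0.06 with the endothelial mean.

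**Figure D5:**
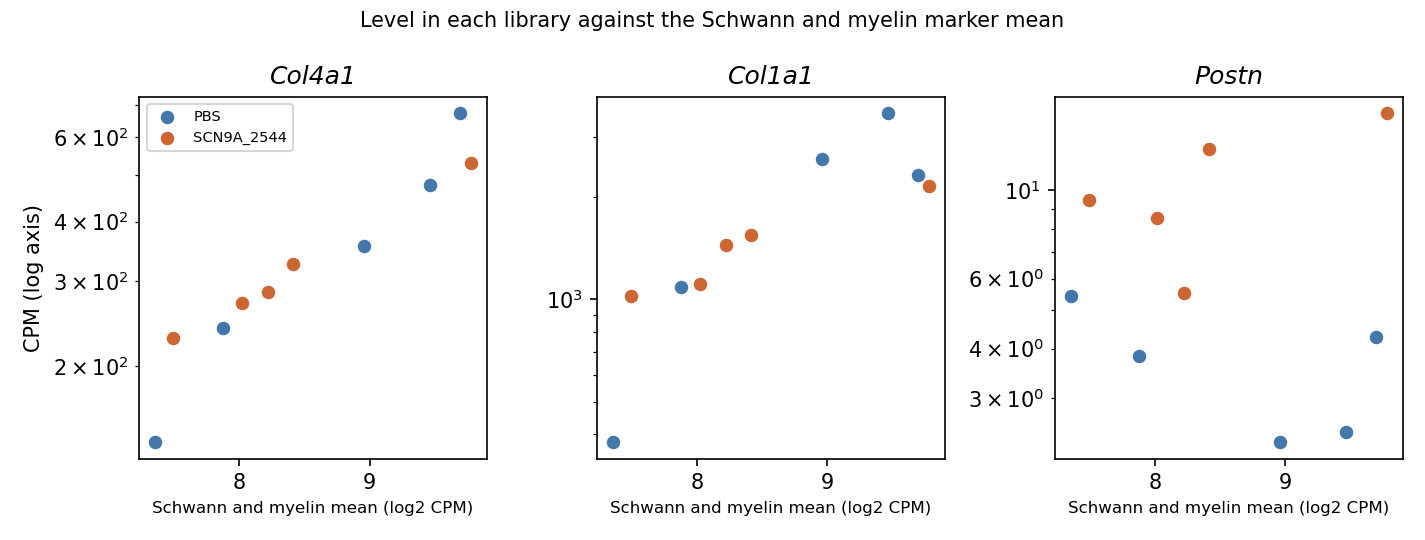
Level in CPM on a log axis of Col4a1, Col1a1 and Postn in each library against the mean log2 CPM of 15 Schwann cell and myelin markers, with colours for the 2 groups. Col4a1 (r = 0.95) and Col1a1 (r = 0.86) climb with the marker mean in both groups. Postn has r = -0.14 over all 10 libraries and -0.58 without the 2 most distant ones.

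Of the cell types a ganglion can hold, none of 11 marker lists passed between the groups after adjustment over the lists. With 5 libraries against 5, the smallest exact permutation p of 0.00794 adjusts to 0.0873 for a single list among 11, so 1 fully separated list alone could not pass. The mean of fibroblast markers, in log2 CPM, was 5.45 ± 0.28 for PBS against 5.50 ± 0.31 for SCN9A_2544 (SD, n = 5 each, exact permutation p = 0.810), and 4 genes of that list also stood in the lists of the pathway. The Schwann mean was 8.67 ± 1.02 and 8.38 ± 0.85 (exact permutation p = 0.627), lowest in PBS replicate 1 and highest in SCN9A_2544 replicate 3. Differences of the mural, endothelial, pan-neuronal, sensory neuron and skeletal muscle means were 0.00, 0.01, 0.11, 0.13 and -0.06, with exact permutation p-values of 0.976, 0.976, 0.802, 0.730 and 0.952. Perineurial and meningeal markers differed by 0.59 (exact permutation p = 0.183) and cartilage and bone markers by 0.18 (exact permutation p = 0.190). Macrophage markers stood at 3.63 ± 0.24 log2 CPM in the PBS group and 4.11 ± 0.38 in siRNA-treated ganglia (exact permutation p = 0.0476, or 0.262 adjusted over the 11 lists). Satellite glia markers stood at 5.97 ± 0.13 and 6.25 ± 0.06, without overlap of the libraries (exact permutation p = 0.00794, or 0.0873 adjusted), and their summed level was 3659 to 5022 CPM in PBS and 5079 to 5931 CPM in SCN9A_2544 libraries. No marker was at 0 in every library.

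With the Schwann, pan-neuronal or fibroblast mean as a covariate in the edgeR fit, the log2 fold change of Postn moved little. These means differed between the groups by -0.29, 0.11 and 0.05 log2 CPM, within their spread, so such fits could shift that value little. The satellite glia mean, which separated the groups, and the macrophage mean were not used as covariates, and their part was not tested. Of the 43 members, 32 had a higher log2 fold change than without a covariate and 11 a lower one when the Schwann mean was used, 31 and 12 with the pan-neuronal mean, and 26 and 17 with the fibroblast mean. The log2 fold change of Postn was 1.50 with the Schwann mean, 1.49 with the pan-neuronal mean and 1.57 with the fibroblast mean, and its adjusted p by edgeR's quasi-likelihood test was 0.291, 0.249 and 0.992. With the Schwann mean the median over the fibrillar genes went from -0.34 to 0.06, and Col1a1 and Col3a1 each stood at 0.06. In that fit 10 members were higher at an unadjusted p under 0.05, against 5.55% of all genes on the higher side. On the lower side there were 2 members, against 424 of all 15186 genes, and 0 members passed after adjustment. The higher ones were Postn, Col7a1, Col5a2, Col6a3, Col6a6, Col15a1, Col16a1, Col18a1, Col22a1 and Col27a1, and the lower ones were Col9a1 and Col19a1. Col18a1 had a log2 fold change of 0.70 there, Col16a1 one of 0.75 and Col27a1 one of 0.65. With the pan-neuronal mean 6 members were higher at an unadjusted p under 0.05, against 6.1% of all genes, and 0 passed.

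Enzymes that make and cross-link collagen were the largest of the pathway lists, which were chosen with earlier results of these data known. Of its 31 tested genes 0 passed by edgeR, 4 had an unadjusted p under 0.05 on the higher side and 0 on the lower, 21 lay above 0, and the median log2 fold change was 0.19. Over all genes tested, 2.5% were higher and 1.73% lower at that threshold. Above 0 lay 53.4% of all genes, with a median of 0.02. Colgalt1, which adds galactose to collagen, had a log2 fold change of 0.38 (SE 0.14), at 54.4 ± 8.85 CPM in PBS and 70.9 ± 9.34 CPM in siRNA-treated ganglia (SD, n = 5 each). Loxl1, a cross-linking oxidase, had 1.05 (SE 0.44), at 5.06 to 29.5 CPM in PBS and 12.5 to 44.5 CPM in siRNA-treated ganglia. Adamts3, which trims procollagen, and P4ha2, a prolyl hydroxylase, had 0.65 (SE 0.29) and 0.35 (SE 0.16). The groups overlapped for all 4. Without SCN9A_2544 replicate 3 the median of the list was -0.07.

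No gene of the collagen receptors, degrading enzymes or proteoglycans passed after adjustment. The shares over all genes were 2.5% higher and 1.73% lower at an unadjusted p under 0.05 by edgeR, with 53.4% above 0. Of 10 collagen receptor genes 0 had an unadjusted p under 0.05, 8 lay above 0, and the median was 0.10, with Mrc2, an endocytic collagen receptor, at 0.45 (SE 0.28) and the integrin gene Itga11 at 0.66 (SE 0.53). The adhesion receptor genes Adgrg1 and Adgrg6 stood at 0.17 and -0.17. Of 13 genes for collagenases and their inhibitors 1 had an unadjusted p under 0.05, the membrane-bound protease gene Mmp16 at 0.59 (SE 0.24), and the median was -0.01. The protease inhibitor gene Timp1 stood at 0.41, Sparcl1 at -0.47 and the collagenase gene Mmp13 at -0.66. Of 8 genes of small proteoglycans 1 had an unadjusted p under 0.05, Chad at 1.18 (SE 0.51), a gene at 0.422 to 1.02 CPM in PBS and 0.674 to 4.16 CPM in siRNA-treated ganglia. The genes of decorin and lumican, Dcn and Lum, which coat fibrils, stood at -0.71 (SE 0.42) and -0.64 (SE 0.42), and Aspn at 0.77 (SE 0.45). The median of this list was 0.21, with 5 of 8 above 0, and it was 0.55, with 7 of 8 above 0, with the 3 libraries low in neuronal markers left out. Without SCN9A_2544 replicate 3 the median was 0.04 for the receptors and -0.21 for the collagenases and inhibitors.

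Among 21 partners of periostin and other matricellular genes, 3 had an unadjusted p under 0.05 on the higher side, 14 lay above 0, and the median was 0.20, or 0.08 without SCN9A_2544 replicate 3. Of all genes tested, 2.5% were higher and 1.73% lower at an unadjusted p under 0.05 by edgeR, and 53.4% lay above 0. Tnc, which encodes tenascin-C, a matrix protein that binds periostin, stood at 60.6 ± 16.2 CPM in the PBS group and 85.9 ± 17.6 CPM in siRNA-treated ganglia (SD, n = 5 each), a log2 fold change of 0.50 (SE 0.20). The receptor gene Notch1 had 0.60 (SE 0.23) and the matricellular genes Ccn3 and Ccn1 had 1.25 (SE 0.51) and 0.95 (SE 0.48). The groups overlapped for all 4, unlike for Postn. Among 18 partners of type IV collagen in basement membranes 1 had an unadjusted p under 0.05, 13 lay above 0, and the median was 0.11. Without SCN9A_2544 replicate 3, 7 of the 18 lay above 0 and the median was -0.14. The gene with the unadjusted p under 0.05 was Pxdn, the peroxidase that cross-links type IV collagen, with 55.2 to 71.4 CPM in PBS and 75.0 to 125 CPM in siRNA-treated ganglia, which did not overlap, and a log2 fold change of 0.40 (SE 0.16). Over all genes tested 0.454% were without overlap on the higher side, and Pxdn was named for the smallest p of its list. The proteoglycan gene Agrn had 0.34, the nidogen gene Nid2 0.43 and the laminin gene Lama3 -0.27. By edgeR's quasi-likelihood test 0 genes of these 6 lists passed, and the genes named from them had adjusted p-values of 0.963 or above.

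The genes whose log2 CPM was most like that of Postn over the 10 libraries, among 15186, were Pacc1 (r = 0.95), Pkd1l1 (r = 0.92), Tnfrsf1a (r = 0.91), Ntmt1 (r = 0.90) and Lrrc8d (r = 0.88), with no collagen among these 5. Those most like Col1a1 were Col1a2 (r = 0.99), Ppp1r16b (r = 0.99), Col6a1 (r = 0.98), Mob3b (r = 0.97) and Dnaaf9 (r = 0.97). These values describe the highest of many and carry no test.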

How the data were processed

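Poly(A) RNA of 10 L6 dorsal root ganglion samples was sequenced as paired reads of 150 bases, per the labels' protocols. The authors deposited estimated counts per gene, not normalized, in which 11.6% to 12.4% of the values of a library were not whole. STAR 2.7.10a, the build mRatBN7.2 and DESeq2 1.44.0 are named, with no role, per the submitters' processing notes. The counting program, annotation release and strand setting stand as not given in the sources used here, so reads of overlapping genes may have been divided in ways that cannot be traced.

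The estimated counts were rounded to whole numbers. Genes were filtered with filterByExpr (minimum count 10, minimum total 15), libraries were scaled by TMM, and edgeR 4.0.16 in R 4.3.3 gave the quasi-likelihood test, with p-values adjusted by Benjamini-Hochberg over every gene tested and called at 0.05. The biological coefficient of variation was 30.0%. Log2 CPM used a prior count of 2. Single values were compared by two-sided exact permutation tests over the 252 splits into 5 and 5, and correlations used 1e+05 permutations. On data simulated for this comparison over 15186 genes, edgeR recovered 2% of 50 genes changed 1.5-fold and 28% of 50 changed 2-fold. It recovered 74% of 50 changed 3-fold and 92% of 50 changed 4-fold, with 4 false calls. The changed genes were drawn from all genes tested, whose median SE was 0.22 against 0.37 over the members. Simulated counts varied independently between genes, without shifts of composition shared by a library. These shares therefore may not hold for the members.

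The members and lists were chosen with earlier results of these data known. The lists held 283 genes, of which 11 were not analysed here for want of a row under that name: 6 pathway lists (collagen synthesis and cross-linking, collagen receptors, collagenases and inhibitors, proteoglycans, periostin partners, basement membrane partners) and 11 marker lists. All members were accounted for, and beyond them the text names the 4 genes of smallest p of each pathway list and the 5 genes most like Postn and Col1a1, while the rule's 2 genes of each marker list were left out. Alternatives were DESeq2 1.42.0 and its size factors, upper-quartile scaling, other filters, limma 3.58.1 voom with library weights, a replicate block, 3 marker covariates and leaving out each library. No 2 libraries agreed within sampling noise, with a chi-square per gene of 7.71 to 219 over the 45 pairs.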

Additional observations from a re-analysis of the deposited data

Results flagged for a closer look

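Single libraries standing far from the other 4 of their group were looked for in the 43 tested members, by the gap to the nearest library over the group's range on the log2 CPM scale, with a critical value of 0.71. Of 86 groups 10 had such a library. The critical value flags about 1 in 20 groups of independent, normally spread values. The members share the same libraries and vary together, so the count is not read against that rate. SCN9A_2544 replicate 3 gave 4 of them, each high: Col18a1 at 415.3 CPM against 81.4 to 106 CPM, Col9a3 at 261.1 CPM against 63.2 to 91.4 CPM, Col11a2 at 48.14 CPM against 29.0 to 32.9 CPM, and Col20a1 at 27.51 CPM against 10.1 to 13.2 CPM. The counts of Col20a1 were not whole in any library, so its levels are uncertain. PBS replicate 3 was high for Col28a1, at 217.9 CPM against 67.1 to 80.1 CPM, and for Col27a1, at 87.05 CPM against 32.4 to 41.2 CPM. PBS replicate 1 was low for Col6a2, at 79.66 CPM against 232 to 333 CPM, and for Col20a1, at 7.416 CPM against 12.8 to 14.8 CPM. PBS replicate 5 was low for Col6a4, at 0.4672 CPM against 0.769 to 0.893 CPM, which are 7 to 13 counts. SCN9A_2544 replicate 5 was high for Col4a4, at 8.217 CPM against 5.24 to 5.54 CPM. The part of cell composition in these values was not tested.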

How the results depend on the processing

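Over all genes the count called was 0 by edgeR, 12 by DESeq2 (403 higher and 412 lower at an unadjusted p under 0.05), 1 by limma voom, 1 with the pan-neuronal covariate, 1 with the Schwann covariate, 1 on leaving out the 3 libraries low in neuronal markers, and 0 to 1 with each library left out, where SCN9A_2544 replicates 2 and 3 gave the 1. Of the collagens and periostin DESeq2 called 1, and every other alternative 0. The replicate block, with shared replicate numbers, called 0 genes and 0 members and gave 6 members an unadjusted p under 0.05 (4 higher and 2 lower, against 3.21% and 1.75% of all genes) where the fit without it gave 3. Same-numbered samples correlated at -0.01 to 0.57 in their deviations, above 0.1 in 2 of 5 pairs, and 4 of 10 libraries correlated best with their own number, so the numbers were not taken to pair the samples. The sign of the log2 fold change held in all alternatives for 17 of 43 members and changed in at least 1 for 26, none of these called. Under the other scalings, by upper quartile or the size factors of DESeq2, only Col15a1 changed sign among the members. The fibrillar median ran from -0.56 to 0.03 with each library left out and was -0.75 by voom. The type IV median ran from -0.31 to 0.07 and was 0.14 with the Schwann covariate, and that of the other collagens ran from -0.19 to 0.26. The cause of these shifts was not tested. With 5 libraries a group the median SE of a log2 fold change was 0.37 over the members. On simulated data edgeR recovered 28% of genes changed 2-fold, and Postn, at 2.83-fold, was not called by edgeR. The lack of a call therefore does not by itself show that a member differed by less than 2-fold. The edgeR intervals, not adjusted for the number of members, excluded a 2-fold difference in either direction for 13 of the 43 members. For the other members a 2-fold difference was not excluded.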
